A study of Homo sapiens with 15 samples.

Results

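The genes described here encode the mitochondrial respiratory chain, measured in HT1080 cells, a human fibrosarcoma line. They were chosen by gene name and make up 74 of the 60675 genes in the deposited table. Of these, 13 are the protein-coding genes of the mitochondrial genome and 61 are nuclear genes for subunits of complexes I to IV. Of the nuclear genes, 37 encode subunits of complex I, 4 of complex II, 9 of complex III and 11 of complex IV, with NDUFA4 counted in complex IV. The mitochondrial genes contribute 7 subunits to complex I, 1 to complex III, 3 to complex IV and 2 to ATP synthase, whose nuclear subunits were followed as a separate list. The rule used no measured value, and all 74 passed the filter on low counts.

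The study set genetic inactivation of the lysine deacetylases HDAC6 (KDAC6) and HDAC8 (KDAC8) beside treatment with inhibitors sold as selective for them. Total RNA depleted of rRNA was sequenced from 5 groups of 3 biological replicates. The 6CD1m line (genotype HDAC6H216A) and the 6CD2m line (HDAC6H611A) received 1 μM Tubastatin A, an HDAC6 inhibitor, for 2 days, and the 8CDm line (HDAC8H143A) received 5 μM PCI-34051, an HDAC8 inhibitor, for 2 days. WT cells received either inhibitor at the same dose for 14 days. All 15 libraries thus came from inhibitor-treated cells. Each mutant genotype was 1 edited line, and untreated cells and WT cells treated for 2 days were not analysed here. A treated mutant line and treated WT cells therefore differed in genotype and in duration of treatment, which cannot be told apart. The mutations are point changes in the catalytic domains, which counts per gene do not show, so these data hold no check of genotype.

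The respiratory chain passes electrons from NADH and succinate to oxygen in the inner mitochondrial membrane and pumps protons that drive ATP synthase. It is built from subunits of 2 genomes. The mitochondrial genome is transcribed from both strands into long precursors that are cut into single RNAs, mostly at the tRNAs that lie between the coding genes, and all its mRNAs except MT-ND6 come from the same strand. The nuclear subunits are transcribed gene by gene, many with help from the factors NRF1 and GABPA, and are imported as proteins.

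Library totals on genes ran from 10932437 to 19983699 counts (median 17551869), with the lowest in replicate 1 of 6CD1m. Levels are given as CPM, counts per 1000000 of the TMM-scaled library size, as mean ± SD of 3 replicates, and log2 fold changes as estimate ± SE. A gene was called higher or lower at an adjusted p below 0.001 in edgeR's quasi-likelihood test over 19535 genes. Bulk RNA does not separate fewer cells of a kind from less RNA per cell. Of 9 mesenchymal markers 8 passed the filter, and the 9 summed to 3400 to 6480 CPM over all libraries. The 5 blood cell markers summed to 0 to 0.640 CPM, none passed the filter and 1 was at 0 in every library. Of 6 epithelial markers 1 passed, with a sum of 3.50 to 14.3 CPM. Of 4 endothelial markers 3 passed, with sums of 3.27 to 4.24 CPM in 6CD2m and 8CDm cells and 0.460 to 1.96 CPM in the other groups, and CDH5 was called higher in 6CD2m and 8CDm cells against WT, with 0 counts in every WT library on PCI-34051. Of the mesenchymal markers, FN1 (-1.51) and VIM (-0.65) were called lower in 6CD2m cells and PDGFRB (-0.81) in 8CDm cells, each against WT. In 8CDm cells FN1 (1.10, adjusted p = 0.0011) and CDH2 (0.94, adjusted p = 0.0016) were higher but did not pass. At an adjusted p below 0.05, 2 of these markers were higher and 2 lower in 8CDm cells, and 0 were higher and 3 lower in 6CD2m cells. The part of these markers in the results was not tested.

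Some members share sequence, which limits what their counts can separate. MT-ATP8 (chrM:8366-8572 on GRCh38, plus strand) ends inside MT-ATP6 (chrM:8527-9207), and MT-ND4L (chrM:10470-10766) ends inside MT-ND4 (chrM:10760-12137). No tRNA lies between the genes of a pair, so the counts of both may come from the same RNA. The bases in both genes of a pair are in capitals below, with 15 bases on either side, because reads over them belong to both genes.
MT-ATP8 and MT-ATP6, 46 shared bases, chrM:8512-8587: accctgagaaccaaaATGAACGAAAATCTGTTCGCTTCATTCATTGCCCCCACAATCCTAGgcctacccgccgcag
MT-ND4L and MT-ND4, 7 shared bases, chrM:10745-10781: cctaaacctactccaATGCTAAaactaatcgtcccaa

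MT-CO1 and MT-ATP6 also have near-identical nuclear copies on chromosome 1, MTCO1P12 (chr1:631074-632616) and MTATP6P1 (chr1:633696-634376). MT-CO1 matched its copy at 98.7% of 1542 aligned bases, with 20 differences, and MT-ATP6 matched its copy at 98.5% of 681 bases, with 10. Of the windows of 50 bases in MT-CO1, 49.4% also occurred in the copy, so close to the same share of short stretches cannot be assigned by sequence alone. The 60 bases of MT-CO1 and of MTCO1P12 in which the pair differed most are shown with the differing bases in capitals.
MT-CO1, chrM:6207-6266, plus strand: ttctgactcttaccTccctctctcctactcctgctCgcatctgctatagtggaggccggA
MTCO1P12, chr1:631377-631436, plus strand: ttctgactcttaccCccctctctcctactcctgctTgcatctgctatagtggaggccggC

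The mitochondrial mRNAs took a larger share of counts in each treated mutant line than in WT cells on the same inhibitor. The 13 genes held 2.83, 2.31 and 1.99% of counts in the 6CD1m libraries, 2.88, 2.16 and 2.62% in 6CD2m, and 2.70, 2.10 and 2.06% in 8CDm. In WT cells the shares were 1.09, 1.42 and 1.64% on Tubastatin A and 1.48, 1.69 and 1.43% on PCI-34051, so that every mutant library lay above every WT library. No test was run on these shares. The 61 nuclear genes held a mean of 0.326% ± 0.0396, 0.320% ± 0.00812 and 0.314% ± 0.00837 of counts in 6CD1m, 6CD2m and 8CDm cells (SD, n = 3 each). The WT means were 0.386% ± 0.0230 on Tubastatin A and 0.337% ± 0.0264 on PCI-34051. Nuclear shares in 6CD1m and 6CD2m cells lay below every WT library on Tubastatin A, whereas those of 8CDm overlapped with WT cells on PCI-34051. The ratio of mitochondrial to nuclear member counts was 7.50 ± 2.33, 8.00 ± 1.33 and 7.29 ± 1.29 in the 3 mutant lines, against 3.61 ± 0.915 and 4.58 ± 0.713 in WT cells. Replicate 1 of 6CD1m stood apart with the highest ratio (10.1) and the lowest nuclear share (0.281%) of all libraries, and the other 2 replicates of that line had ratios of 6.79 and 5.60.

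**Figure D1:**
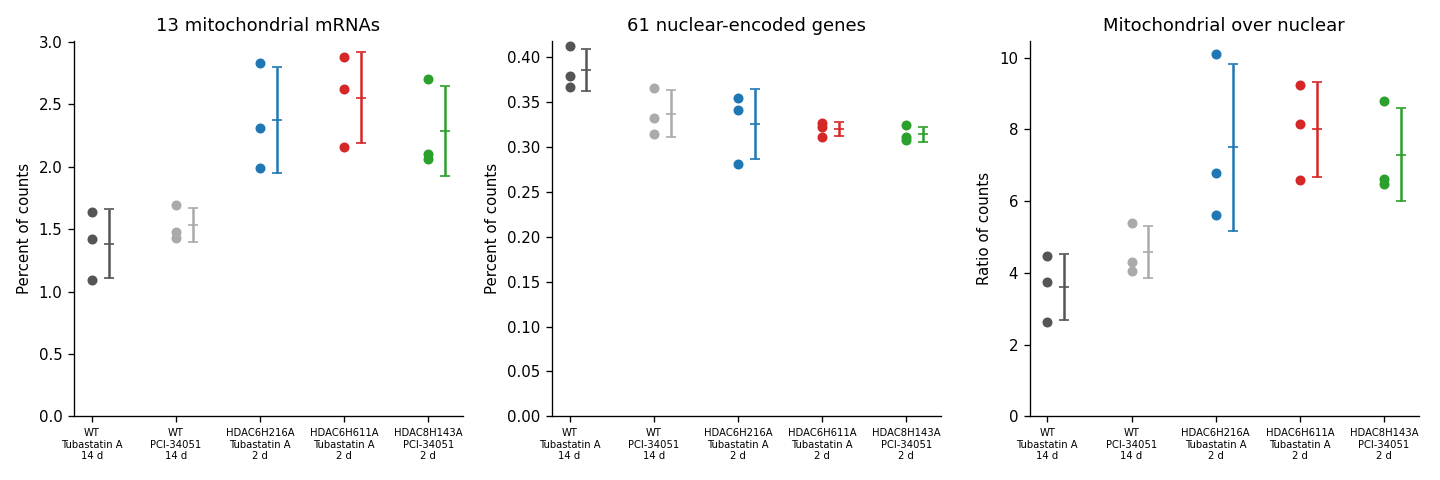
Share of counts on the 13 mitochondrial genes (left, percent) and the 61 nuclear genes (middle, percent) in each library, and their ratio (right). Points are libraries and a bar is the mean ± SD of 3 replicates. The mitochondrial shares of the mutant lines (1.99 to 2.88%) lie above all WT libraries (1.09 to 1.69%), while the nuclear shares overlap in part.

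Per kilobase of transcript, the mitochondrial genes were at far higher levels than the nuclear ones. Averaged over the 15 libraries, the 13 ran from 120 CPM per kb for MT-ND3 to 6020 CPM per kb for MT-CO1 (median 1030), and the 61 nuclear genes from 5.83 to 212 CPM per kb (median 34.3), with lengths taken from the longest principal transcript. MT-CO1, a catalytic core subunit of complex IV, was at 4580 ± 459 CPM per kb in WT cells on Tubastatin A, above the next gene in the order, MT-CO3, at 1260 CPM per kb. The complex IV gene COX4I1 led the nuclear order, at 193 to 221 CPM per kb in the groups other than WT on Tubastatin A and 244 there.

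In treated 6CD2m cells against WT cells on Tubastatin A, 4 of the 13 mitochondrial genes rose and 7 of the 61 nuclear genes fell. Together 11 of 74 members (14.9%) were called, against 11.8% of all genes tested (4.61% higher and 7.22% lower). The median log2 fold change was 0.78 for the mitochondrial and -0.30 for the nuclear genes, against -0.01 for all genes tested. All 13 mitochondrial estimates were positive and 51 of the 61 nuclear estimates were negative. The groups did not overlap for 10 of 13 mitochondrial genes, all higher (23.6% of all genes), and for 35 nuclear genes in the lower direction (26.4% of all genes). Mitochondrial genes share long precursors, so counts of the 13, here and in the other comparisons, are not counts of independent observations.

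Among the mitochondrial genes, MT-ND4L, a membrane subunit of complex I, showed the largest change in treated 6CD2m cells. Its level was 181.4, 117.9 and 182.7 CPM in the 6CD2m libraries and 44.39, 56.92 and 66.32 CPM in WT cells on Tubastatin A, with no overlap, and the log2 fold change was 1.52 ± 0.22 (adjusted p = 6.6e-05). MT-CYB, the cytochrome b of complex III, was at 2556, 1954 and 2333 CPM against 857.6, 1063 and 1269 CPM (log2 fold change 1.10 ± 0.16, adjusted p = 7.2e-05). Of the 3 core subunits of complex IV, 2 passed. MT-CO1 rose from 7070 ± 708 to 11780 ± 1148 CPM (0.74 ± 0.10, adjusted p = 6.7e-05) and MT-CO3 from 989 ± 229 to 2076 ± 272 CPM (1.07 ± 0.16, adjusted p = 0.00014). MT-CO2 was at a log2 fold change of 1.01 ± 0.22 and did not pass (adjusted p = 0.0022). Of the other complex I subunits, MT-ND3 was at 1.32 ± 0.26 (adjusted p = 0.0012) and MT-ND4 at 1.10 ± 0.24 (adjusted p = 0.0021), and neither passed. MT-ND1, MT-ND2, MT-ND5, MT-ATP6 and MT-ATP8 lay between 0.68 and 0.78. The lowest estimate was that of MT-ND6, the 1 mRNA of the opposite strand, at 0.48 ± 0.27 (adjusted p = 0.20). The strand setting of the counts is not given, so MT-ND6 values here and below may hold reads of the other strand.

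**Figure D2:**
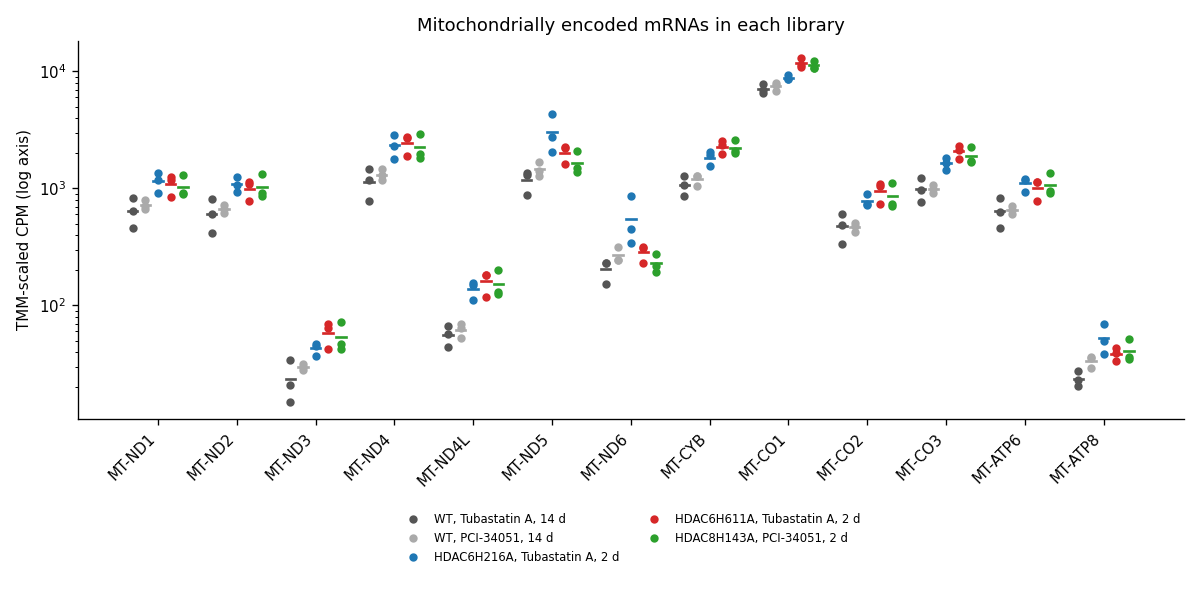
TMM-scaled CPM (log axis) of the 13 mitochondrial genes in each library, with a bar for the mean of each group of 3. For MT-ND4L, MT-CYB and MT-CO3 every mutant library (coloured) lies above every WT library (grey), and for MT-ND6 the 6CD1m libraries lie highest.

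The same 4 mitochondrial genes passed in treated 8CDm cells against WT cells on PCI-34051, and 4 nuclear genes fell. The 8 called members make 10.8% of 74, close to the 11.0% of all genes called (4.69% higher and 6.27% lower). MT-ND4L was at 200.5, 131.2 and 126.2 CPM in 8CDm cells and 64.53, 69.15 and 52.75 CPM in WT cells (1.3 ± 0.21, adjusted p = 0.00032). MT-CYB (0.88 ± 0.16, adjusted p = 0.00054), MT-CO1 (0.59 ± 0.10, adjusted p = 0.00053) and MT-CO3 (0.92 ± 0.16, adjusted p = 0.00058) also rose, with no overlap between the groups. The median over the 13 was 0.72, against -0.04 for all genes, and for the nuclear genes it was -0.02. Of the 13, 10 lay above WT without overlap (23.8% of all genes). MT-ND5 and MT-ND6, neighbours on opposite strands, were at 0.18 ± 0.24 (adjusted p = 0.59) and -0.23 ± 0.27 (adjusted p = 0.54), and the 95% interval of the MT-ND6 difference ran from -0.81 to 0.36. Replicate 1 had the highest level of each of the 13 genes within 8CDm, and the count fell to 2, both nuclear, without it. Without replicate 2 or 3 of 8CDm, or replicate 2 or 3 of WT cells on PCI-34051, 3 genes were called in each case. With the replicate number as a block 3 were called, none of them mitochondrial, and with upper-quartile scaling the split was 1 higher and 5 lower in place of 4 and 4.

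In treated 6CD1m cells against WT cells on Tubastatin A, the same 3 WT libraries as for 6CD2m cells, edgeR called no member and few genes at all (0.793%). The mitochondrial estimates were nonetheless all positive (median 0.84) and all 13 genes lay above WT without overlap (13.8% of all genes). At an adjusted p below 0.05, 12 of the 13 were higher and 7 nuclear genes lower, against 3.61% and 5.78% of all genes, and 47 of the 74 members had an unadjusted p under 0.05, against 32.0% of all genes. DESeq2 called 7 mitochondrial genes higher and 1 nuclear gene, UQCRC1, lower at 0.001, against 3.42% of all genes in either direction. The largest estimates were those of MT-ND6 and MT-ND5. MT-ND6 was at 863.1, 450.1 and 340.4 CPM against 151.2, 230.1 and 232.3 CPM in WT cells (1.43 ± 0.28, adjusted p = 0.0066). MT-ND5 was at 4285, 2764 and 2053 CPM against 871.1, 1308 and 1348 CPM (1.37 ± 0.25, adjusted p = 0.0040). Replicate 1, the library with the lowest total, was highest for both genes, and the other 2 replicates were also above all WT libraries. Without replicate 1 the estimates were 0.95 ± 0.20 for MT-ND6 and 1.03 ± 0.21 for MT-ND5, and MT-ND4L was highest (1.23 ± 0.23), as in 6CD2m cells. MT-CO1 was at the low end, with 9371, 8562 and 8639 CPM (0.33 ± 0.10, adjusted p = 0.061). Of the nuclear genes 55 had negative estimates (median -0.41) and 32 lay below WT without overlap, against 17.2% of all genes. Without replicate 1 of 6CD1m the nuclear median was -0.22 and the mitochondrial median 0.77.

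**Figure D3:**
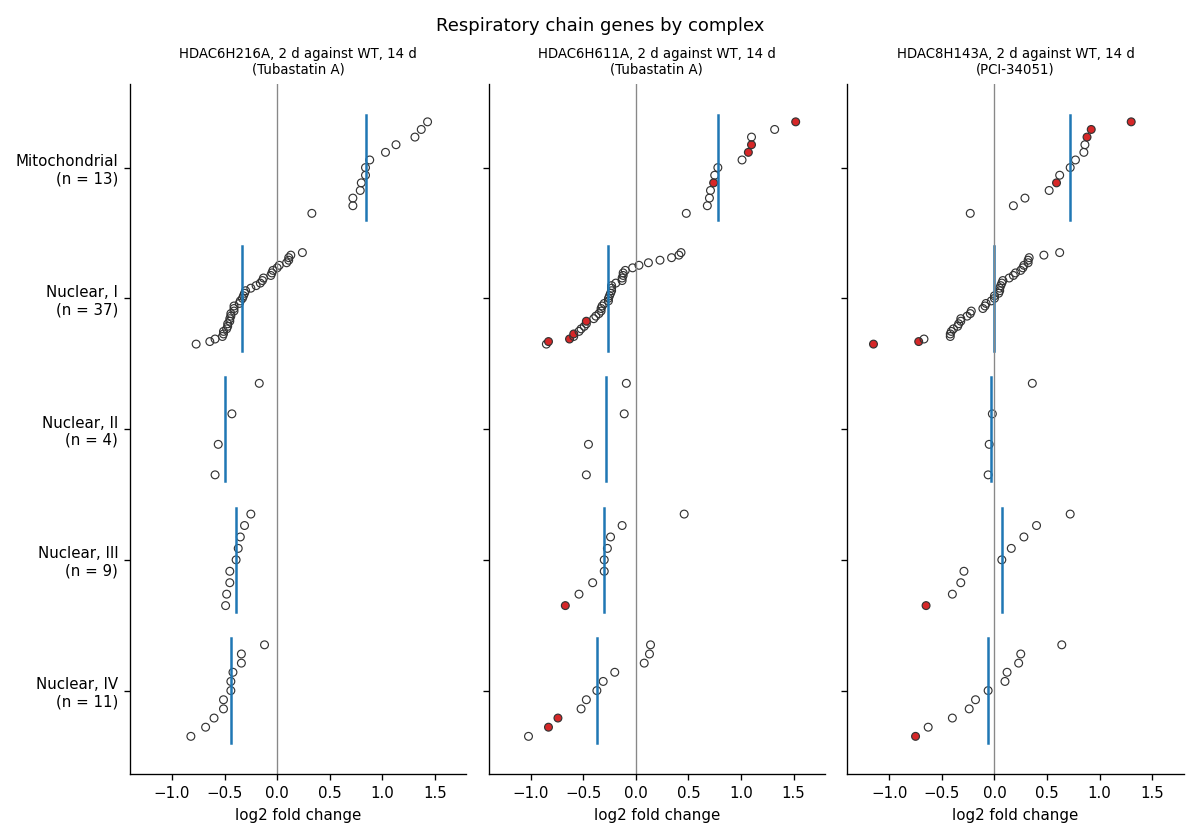
Log2 fold change of every member in the 3 treated mutant lines against WT cells on the same inhibitor, by genome and complex, with filled points for genes called at an adjusted p below 0.001 and a line at each median. The mitochondrial genes lie at medians of 0.84, 0.78 and 0.72, and the called nuclear genes all lie below 0.

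The nuclear genes that fell in treated 6CD2m cells belong to complexes I, III and IV, and none to complex II. COX8A, a small complex IV subunit, was at 62.40, 65.50 and 61.79 CPM in 6CD2m cells against 116.2, 107.2 and 114.3 CPM in WT cells on Tubastatin A (-0.83 ± 0.08, adjusted p = 2.0e-06). COX5B, another complex IV subunit, was at 44.82, 46.05 and 43.94 CPM against 79.16, 70.41 and 75.85 CPM (-0.74 ± 0.14, adjusted p = 0.00067). UQCRC1, a core protein of complex III, was at 129.1, 137.8 and 129.9 CPM against 224.1, 208.3 and 200.2 CPM (-0.67 ± 0.08, adjusted p = 2.2e-05). For these 3 genes every 6CD2m library lay below every WT library. The other 4 genes encode complex I. NDUFS3, NDUFS7 and NDUFS8 are core subunits of its peripheral arm, of which NDUFS7 and NDUFS8 bind iron-sulfur clusters, and NDUFB7 is a small accessory subunit of the membrane arm. NDUFS3 changed by -0.83 ± 0.12 (adjusted p = 0.00011), NDUFS7 by -0.63 ± 0.12 (adjusted p = 0.00071), NDUFB7 by -0.59 ± 0.11 (adjusted p = 0.00095) and NDUFS8 by -0.47 ± 0.09 (adjusted p = 0.00063). COX8A, with UQCRC1, MT-CYB, MT-CO1, MT-CO3 and MT-ND4L, passed the threshold without any 1 of the 6 libraries. The count of 11 fell to 6 without replicate 1 or 3 of 6CD2m or replicate 1 of WT cells on Tubastatin A, and to 7 without WT replicate 2 or when replicate number was a block.

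In treated 8CDm cells the nuclear gene with the largest change was NDUFS8. It was at 40.09, 41.01 and 41.72 CPM against 85.91, 90.70 and 96.61 CPM in WT cells on PCI-34051 (-1.15 ± 0.09, adjusted p = 1.7e-07). COX8A was at 52.51, 60.46 and 57.77 CPM against 93.59, 96.14 and 96.73 CPM (-0.75 ± 0.08, adjusted p = 7.9e-06). Both genes were called in 6CD2m and in 8CDm cells, each against its own WT group. For NDUFS8 the call in 6CD2m cells was lost in all 6 fits that left out a library and in 7 of 10 other alternatives (adjusted p up to 0.015). NDUFB2, a complex I accessory subunit, changed by -0.72 ± 0.13 (adjusted p = 0.00073) and UQCR11, a small complex III subunit, by -0.65 ± 0.10 (adjusted p = 0.00016). The nuclear estimates were otherwise divided, with 28 positive and 33 negative, and 18 genes below WT without overlap (24.4% of all genes).

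**Figure D4:**
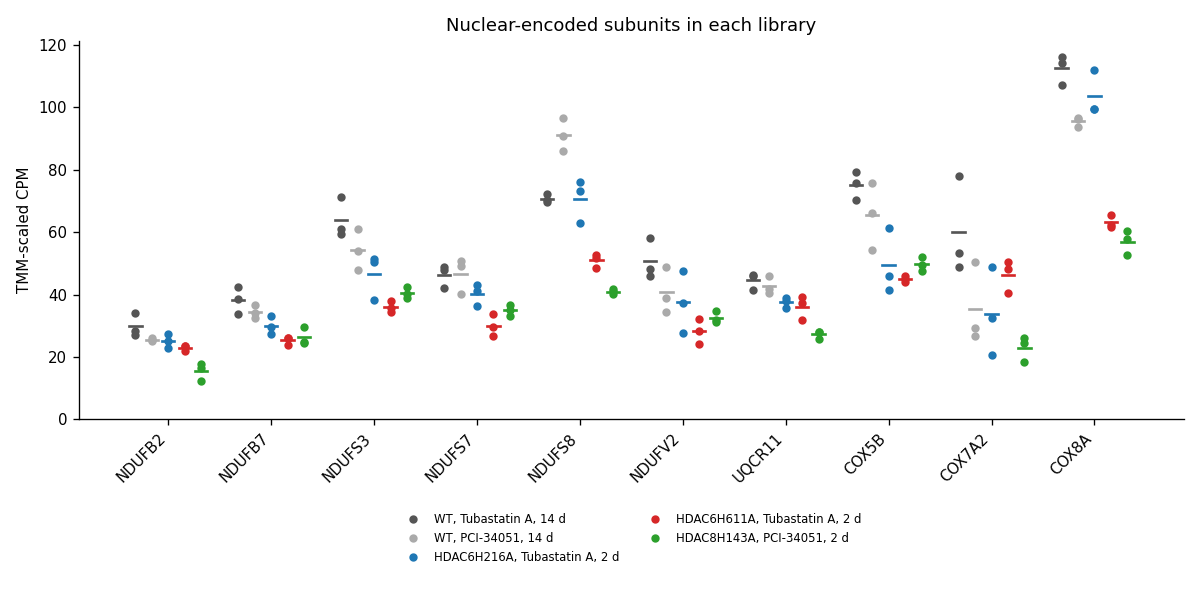
TMM-scaled CPM of 8 of the 9 nuclear genes called in 6CD2m or 8CDm cells (all but UQCRC1, which lies at a higher level), with NDUFV2 and COX7A2, in each library, with a bar for the mean of each group of 3. COX8A lies at 52.51 to 65.50 CPM in 6CD2m and 8CDm cells and at 93.59 CPM or more in every other library.

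The nuclear genes called had a higher median GC content than those not called. In treated 6CD2m cells the 7 that fell had a median GC content of 59.5% (52.0 to 66.5%), against 47.6% for the 54 not called. In 8CDm cells the 4 that fell had a median of 56.1%, against 48.2% for the other 57. The 13 mitochondrial genes ran from 39.6 to 47.7%, and the median of 13946 protein-coding genes tested was 49.3%. With offsets for GC content in the model, 4 mitochondrial genes were still called higher in 6CD2m cells but only 3 nuclear genes lower, namely COX8A (-0.87), NDUFA4 (-1.14) and COX7C (-0.62). UQCRC1, NDUFS3, NDUFS7, NDUFS8, NDUFB7 and COX5B no longer passed. In 8CDm cells NDUFS8 (-0.79) and NDUFB2 (-0.78) were called lower with these offsets, COX8A and UQCR11 were not, and of the 4 mitochondrial genes MT-CO1 was not. With GC offsets and the replicate block together no member was called in 8CDm cells.

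**Figure D5:**
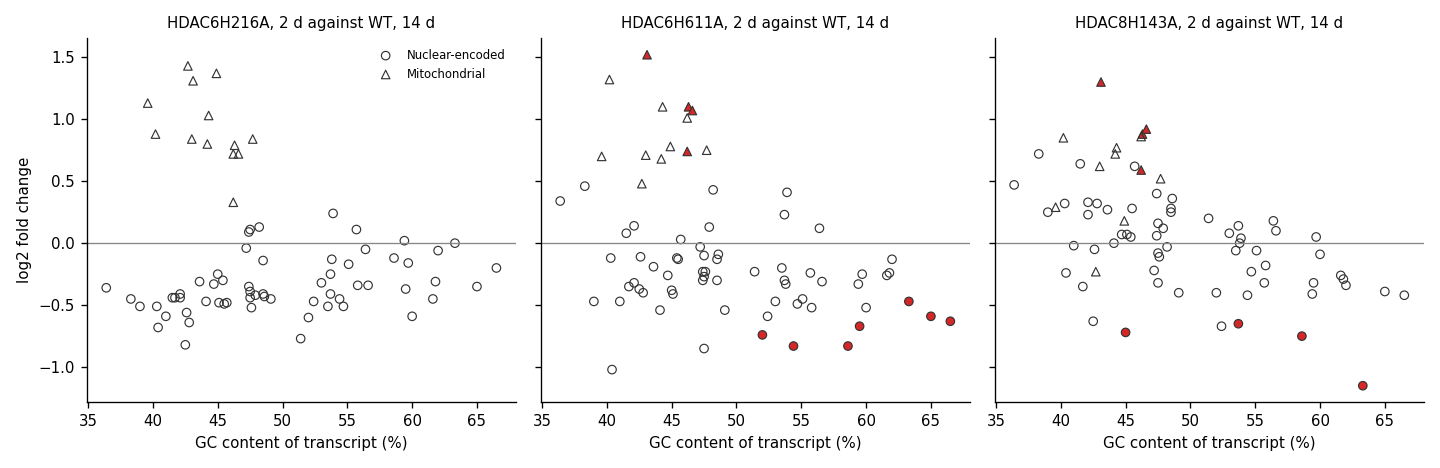
Log2 fold change of each member against the GC content of its transcript (percent) in the 3 treated mutant lines, with circles for nuclear and triangles for mitochondrial genes and filled points for genes called. In the middle panel (6CD2m) the called nuclear genes lie at a GC content of 52.0% or more.

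NDUFV2 and COX7A2 were set beside the medians of their chromosomes. NDUFV2, an iron-sulfur subunit of complex I on chromosome 18, was at 28.36, 32.12 and 24.08 CPM in treated 6CD2m cells against 58.15, 45.84 and 48.24 CPM in WT cells (-0.85 ± 0.18, adjusted p = 0.0019). The median of 191 protein-coding genes of chromosome 18 was -0.79 in this comparison, against -0.02 for the other protein-coding genes. COX7A2, a complex IV subunit on chromosome 6, was at 18.51, 26 and 24.48 CPM in 8CDm cells against 50.45, 26.74 and 29.30 CPM in WT cells on PCI-34051 (-0.63 ± 0.29, adjusted p = 0.10). The median of chromosome 6 was -0.34. Neither gene passed the threshold in edgeR's fit of all libraries in any of the 6 comparisons of groups, but DESeq2 called NDUFV2 in 6CD2m cells against WT (-0.81, adjusted p = 0.00014). In the other comparisons the gene and its chromosome did not always move alike. NDUFV2 was at 0.32 between the WT groups (chromosome 18 median 0.21), -0.44 in 6CD1m cells (-0.33), -0.32 in 8CDm cells (0.12), -0.41 in 6CD2m against 6CD1m cells (-0.51) and -0.21 in 6CD2m against 8CDm cells (-0.73). COX7A2 was at 0.76 between the WT groups (chromosome 6 median 0.16), -0.82 in 6CD1m (-0.16) and -0.37 in 6CD2m cells (0) against WT, 0.45 in 6CD2m against 6CD1m cells (0.14) and 1.01 in 6CD2m against 8CDm cells (0.43).

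WT cells on Tubastatin A and on PCI-34051 for 14 days were compared to see whether the inhibitors differed. No member was called, as for all but 0.420% of genes, and 24 of the 74 members had an unadjusted p under 0.05, against 30.0% of all genes. The mitochondrial median was -0.16 and the nuclear median 0.24, with 53 of 61 nuclear estimates positive. The 95% interval of the difference ran from -0.30 to 0.14 for MT-CO1, and from -0.98 to 0.20 for MT-ND6, in the fit without pairs. NDUFS8 was 1 of 3 members past 0.05, with 70.72 ± 1.44 CPM on Tubastatin A and 91.07 ± 5.36 CPM on PCI-34051 (-0.36 ± 0.09, adjusted p = 0.018), and it passed 0.001 with DESeq2, which called 4.08% of all genes. Deviations of same-numbered WT libraries correlated (r = 0.505, 0.235 and 0.169), and when the replicate number was entered as a block for these 6 libraries alone, an analysis chosen after seeing the data, 10 members were called, 9 of them higher on Tubastatin A. In that fit 11.7% of all genes were called. The 10 members were COX7A2 (0.76, adjusted p = 2.9e-05), COX7B, COX7C and NDUFA4 of complex IV, UQCRFS1 and UQCRB of complex III, SDHD of complex II and NDUFA9 and NDUFS1 of complex I, all higher, and NDUFS8 (-0.39), which was lower. No mitochondrial gene was called in it. MT-ND6 was at -0.43 ± 0.09 (95% interval -0.62 to -0.24, adjusted p = 0.0022), MT-ATP8 at -0.53 ± 0.12 (adjusted p = 0.0045) and MT-ND5 at -0.36 ± 0.10 (adjusted p = 0.015), lower on Tubastatin A and past 0.05 but not 0.001, and MT-CO1 at -0.11 ± 0.08 (adjusted p = 0.30). With the block in a fit of all libraries none was called.

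The HDAC6 lines were then set against each other, on the same inhibitor and duration. Of the members, 2 were called, against 13.2% of all genes, and both were lower in 6CD2m cells (6.54% of all genes were lower). COX8A was at 99.51, 112.0 and 99.48 CPM in 6CD1m cells and 62.40, 65.50 and 61.79 CPM in 6CD2m cells (-0.71 ± 0.08, adjusted p = 1.1e-05), and NDUFS8 was at 73.08, 76.08 and 62.95 CPM against 52.81, 51.67 and 48.45 CPM (-0.47 ± 0.09, adjusted p = 0.00061). Neither gene's libraries overlapped between the lines. With GC offsets neither passed, and without any 1 of the libraries other than replicate 3 of 6CD1m the count was 1, whereas without that library it was 3. The mitochondrial genes were divided (median 0.07). MT-CO1 was at 0.41 ± 0.10 (adjusted p = 0.0060) and MT-ND6 at -0.95 ± 0.28 (adjusted p = 0.013), with no overlap for either, and neither passed.

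Treated 6CD2m and 8CDm cells differed in line and inhibitor together, and no member was called between them, against 9.96% of all genes, while 13 had an unadjusted p under 0.05 (35.8% of all genes). The mitochondrial estimates ran from -0.09 to 0.32, with intervals of -0.15 to 0.29 for MT-CO1 and -0.37 to 0.52 for MT-ND4L. Fitted on these 6 libraries alone, 9 members were called, against 23.2% of all genes, and DESeq2 called 3 (15.9%). Whether the change against WT cells differed between 6CD2m and 8CDm cells was tested with an interaction term, which called no member, against 5.16% of all genes, and gave 13 an unadjusted p under 0.05 (32.2%). NDUFS8 came closest (0.68 ± 0.12, adjusted p = 0.0010), with the smaller decrease in 6CD2m cells. DESeq2 called this member alone, with 10.0% of all genes. At the looser threshold of an adjusted p below 0.05, 35 members passed in 6CD2m against WT cells (32.8% of all genes), 23 in 8CDm against WT (36.1%), 19 in 6CD1m against WT (9.40%), 3 between the WT groups (9.48%), 16 between the HDAC6 lines (40.3%), 7 between 6CD2m and 8CDm cells (26.5%) and 7 for the interaction (19.3%).

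Other genes of the pathway were counted in the same way. Of 15 nuclear ATP synthase subunits, 2 fell and none rose in 6CD2m cells against WT cells, namely ATP5A1 on chromosome 18 (-1.25 ± 0.18, adjusted p = 8.9e-05) and ATP5D (-0.75 ± 0.09, adjusted p = 7.8e-06). In 8CDm cells ATP5D (-1.07 ± 0.09, adjusted p = 3.2e-07) and ATP5G1 (-0.70 ± 0.12, adjusted p = 0.00046) fell. ATP5D, the delta subunit, was also called lower in 6CD2m than in 6CD1m cells (-0.61 ± 0.09, adjusted p = 6.1e-05). Of 42 assembly factors, 3 fell and none rose in 6CD2m cells, where 7.22% of all genes fell, and 4 fell and 2 rose in 8CDm cells, where 6.27% of all genes fell and 4.69% rose. The count in 6CD2m cells is at the share of all genes. SCO2, which delivers copper to complex IV, was called lower in both lines (-1.10 ± 0.15 and -1.03 ± 0.15). NDUFAF5 (-0.85), a complex I assembly factor, fell in 6CD2m cells, and C17orf89 (-1.01) fell and LYRM7 (0.81) and SCO1 (0.41) rose in 8CDm cells. In 6CD2m against 6CD1m cells 1 assembly factor was higher, NUBPL (0.94), and 5 were lower (6.65% and 6.54% of all genes), led by NDUFAF5 (-0.91) and C17orf89 (-0.90). In 6CD2m against 8CDm cells TTC19 and COA5 (both -0.78) were lower. None of these lists had a call between the WT groups or in 6CD1m cells.

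Of 21 genes for mitochondrial transcription and RNA handling, 1 fell in 6CD2m cells, TBRG4 (-0.66 ± 0.08, adjusted p = 1.1e-05), and 1 rose in 8CDm cells, FASTKD1 (0.63 ± 0.12, adjusted p = 0.00068). Over all genes 7.22% fell in 6CD2m cells and 4.69% rose in 8CDm cells, so that neither count stands above its background. TBRG4 was also lower in 6CD2m than in 6CD1m (-0.50) and 8CDm cells (-0.44), and TFB1M was higher than in 8CDm cells (0.68). POLRMT, the mitochondrial RNA polymerase, was at 86.1 ± 3.41 CPM in 6CD2m, 107.5 ± 5.57 CPM in 8CDm and 112.3 ± 23.2 CPM in 6CD1m cells, and at 105.5 ± 7.92 CPM and 133.2 ± 12.6 CPM in WT cells on Tubastatin A and PCI-34051. TFAM, which packages mitochondrial DNA, was at 72.37 ± 5.27, 68.51 ± 2.86 and 49.11 ± 12.03 CPM in 6CD2m, 8CDm and 6CD1m cells and at 69.87 ± 14.81 and 50.81 ± 11.65 CPM in the WT groups. LRPPRC, which stabilizes mitochondrial mRNAs, was at 258.9 ± 12.3, 291.9 ± 11.4 and 161.5 ± 47.6 CPM in these lines and at 213 ± 39.3 and 164.1 ± 48.3 CPM in WT cells. None of the 3 was called in any comparison. Among 9 genes for mitochondrial DNA replication, TOP1MT rose (0.69) and POLG fell (-0.55) in 6CD2m cells, and against 6CD1m cells TOP1MT and SSBP1 (0.80) were higher and POLG lower (-0.61).

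Of 10 regulators of respiratory chain genes, NRF1 fell in treated 6CD2m cells against WT, where 7.22% of all genes fell and 4.61% rose. It was at 12.97, 12.67 and 12.85 CPM there, at 23.94, 23.02 and 25.01 CPM in WT cells on Tubastatin A (-0.90 ± 0.10, adjusted p = 4.9e-06) and at 22.39, 24.00 and 24.26 CPM in 6CD1m cells (-0.88 ± 0.10, adjusted p = 7.8e-06). In 8CDm cells NRF1 was at 17.05 ± 0.674 CPM against 18.84 ± 1.8 CPM in WT cells on PCI-34051 and was not called. MYC was higher in 6CD2m than in WT and in 6CD1m cells (0.83 in both). GABPA was at 39.27 ± 2.20 CPM in 6CD2m and 18.43 ± 5.83 CPM in 6CD1m cells (1.09 ± 0.20, adjusted p = 0.00059), and it was not called against WT cells. PPARGC1A, a coactivator of mitochondrial biogenesis, rose from 2.338 ± 0.544 to 5.811 ± 0.449 CPM in 8CDm cells (1.3 ± 0.22, adjusted p = 4.0e-04), with CREB1 (0.82). Over all genes 4.69% rose in that comparison. PPARGC1B was lower in 6CD2m than in 8CDm cells (-0.48). Of 18 glycolysis genes, PFKM (-0.73) and ENO2 (-1.09) fell in 6CD2m cells against WT (7.22% of all genes). None was called in 8CDm or 6CD1m cells against WT, where 11.0% and 0.793% of all genes were called. PFKM and ENO2 were also lower in 6CD2m than in 6CD1m cells (-0.50 and -1.02) and than in 8CDm cells (-0.50 and -0.84). SLC2A1 was higher in 6CD2m than in 6CD1m cells (0.67). ENO2 passed the interaction test (-1.28). Of 7 tissue or hypoxia isoforms of subunits 3 passed the filter and none was called.

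The promoters of the nuclear members were searched for the motifs of these factors. RefSeq windows of 250 bases before to 50 after the gene start (GRCh38.p14) were matched for 51 of the 61 nuclear genes by symbol. The NRF1 motif GCGCANGCG, on either strand, stood in 16 of the 51 (31.4%) and in 8.05% of 27305 windows of all genes. The ETS motif CCGGAAGT, which GABPA binds, stood in 8 members (15.7%, against 4.44% of all), the YY1 motif AAGATGGCG in 7 (13.7%, against 1.85%) and the Sp and KLF motif GGGGCGGGG in 8 (15.7%, against 16.0%). Of the 9 nuclear genes called lower in 6CD2m or 8CDm cells, 3 held the NRF1 motif, 3 the ETS motif, 2 the YY1 motif and 1 the Sp and KLF motif. A promoter counted once for each motif it held, and the motifs were searched separately, so that a base may belong to more than 1. A match is a description of these letters and no measure of binding. The windows of 5 of these genes are shown from 150 bases before to 10 after the start, with NRF1 and ETS matches in capitals, because they hold the genes called in both lines and examples with and without a match, chosen after their values were seen.
COX8A, chr11:63974470-63974629, plus strand: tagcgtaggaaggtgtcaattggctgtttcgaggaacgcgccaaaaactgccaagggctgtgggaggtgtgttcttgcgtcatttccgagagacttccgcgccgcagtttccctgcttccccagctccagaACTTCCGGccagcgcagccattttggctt
NDUFS8, chr11:68030531-68030690, plus strand: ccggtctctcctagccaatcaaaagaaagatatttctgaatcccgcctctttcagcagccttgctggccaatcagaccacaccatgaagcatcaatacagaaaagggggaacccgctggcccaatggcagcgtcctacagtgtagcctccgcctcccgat
COX5B, chr2:97645912-97646071, plus strand: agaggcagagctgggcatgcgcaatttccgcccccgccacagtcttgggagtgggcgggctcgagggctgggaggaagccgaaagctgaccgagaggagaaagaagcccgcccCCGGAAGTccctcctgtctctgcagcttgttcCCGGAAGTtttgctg
UQCRC1, chr3:48609637-48609796, minus strand: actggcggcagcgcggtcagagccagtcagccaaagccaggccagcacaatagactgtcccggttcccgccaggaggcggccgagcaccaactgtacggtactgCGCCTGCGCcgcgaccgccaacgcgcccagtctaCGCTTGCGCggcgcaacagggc
UQCR11, chr19:1605453-1605612, minus strand: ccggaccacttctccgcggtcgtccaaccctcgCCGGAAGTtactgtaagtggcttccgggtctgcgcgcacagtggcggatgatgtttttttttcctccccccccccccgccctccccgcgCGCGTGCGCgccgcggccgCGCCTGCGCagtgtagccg
The ETS match of COX8A began at position -19 relative to the start, and COX5B held 2, at -37 and -5. UQCRC1 held the NRF1 motif at -46 and -12, and UQCR11 held it at -28 and -9 with an ETS match at -117. The NDUFS8 window held none of the 4 motifs.

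Other RNA of the mitochondrial genome was measured at low levels. The 22 mitochondrial tRNA genes were listed at 0 in all libraries. The rRNAs, measured here in rRNA-depleted RNA, were uneven between replicates. MT-RNR1 was at 61.17, 3.901 and 17.66 CPM in 8CDm, 21.31, 16.67 and 3.615 CPM in 6CD2m and 1.755 to 2.273 CPM in 6CD1m libraries, against 1.548 to 3.293 CPM in WT libraries. MT-RNR2 was at 60.77, 3.467 and 17.50 CPM in 8CDm, 19.83, 16.11 and 4.338 CPM in 6CD2m and 1.255 to 3.283 CPM in 6CD1m libraries, against 1.548 to 5.436 CPM in WT libraries. Neither gene was called in any comparison, with log2 fold changes of 2.50 ± 0.77 and 2.61 ± 0.80 in 6CD2m and 3.67 ± 0.79 and 2.49 ± 0.74 in 8CDm cells against WT. Of the 7 nuclear copies on chromosome 1, 3 passed the filter. MTCO1P12 was at 71.43 ± 4.12 CPM in 6CD2m and 77.05 ± 4.97 CPM in 8CDm cells, against 38.64 ± 1.86 and 35.17 ± 3.54 CPM in WT cells on Tubastatin A and PCI-34051 (0.89 ± 0.10, adjusted p = 6.0e-06, and 1.13 ± 0.10, adjusted p = 7.1e-07). It was at 35.66 to 40.92 CPM in 6CD1m cells, below 6CD2m cells (0.87 for the difference). MTATP6P1 was at 121.3 to 212.7 CPM in the mutant libraries and 73.74 to 110.2 CPM in WT libraries. These levels were below those of MT-CO1 and MT-ATP6 in every library.

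Nuclear-retained and small structural RNAs were followed alongside. The nuclear-retained RNAs held 1.6% ± 0.353, 1.64% ± 0.214 and 2.11% ± 0.264 of counts in 6CD1m, 6CD2m and 8CDm cells, against 1.10% ± 0.213 and 1.58% ± 0.314 in WT cells on Tubastatin A and PCI-34051. Small structural RNAs held 7.16% ± 1.35, 4.70% ± 0.788 and 5.20% ± 0.447 in these lines, against 5.35% ± 0.927 and 7.43% ± 1.73. Neither nuclear-retained RNA was called, and of the small structural RNAs SNORD3A rose (1.16) and RPPH1 fell (-1.16) in 6CD2m cells and SNORD3A rose (1.89) in 8CDm cells. Their part in the results was not tested. With the 61 nuclear genes as a share of the counts left without mitochondrial and small structural RNA genes, their means were 0.345% in 6CD2m and 0.340% in 8CDm cells against 0.414% and 0.370% in WT cells. Libraries scaled without mitochondrial and small structural RNA genes gave the same counts of called members, 11 in 6CD2m, 8 in 8CDm and 0 in 6CD1m cells.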

How the data were processed

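RNA-seq of 15 libraries was analysed from the estimated counts per gene that the authors deposited. Per the labels' processing notes the tools were Trimmomatic 0.39, Bowtie2 2.4.5, RSEM 1.3.3 and DESeq2 1.38.2, with GRCh38. RSEM divides reads shared by several genes in expectation, so that 21.8% of nonzero values were not whole. The strand setting is not given in the sources used here, so reads from opposite strands cannot be told apart, either for overlapping genes or for MT-ND6. The counts were not normalized by the authors and were rounded here to whole numbers.

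Members, lists of genes and tests were chosen with earlier results of these data known. Counts were filtered with edgeR's filter, scaled by TMM, and fitted in 1 model of all libraries in edgeR 4.0.16 (R 4.3.3) with its quasi-likelihood test and Benjamini-Hochberg adjustment over 19535 genes, at the false discovery rate of 0.001 that the study used. The common biological coefficient of variation was 16.4%. SE and 95% intervals come from this fit. Lists were matched by Ensembl identifier. Transcript length and GC content come from GENCODE 29, which matched 57055 of 60675 genes, and the GC offsets from a smooth curve of each library against GC content. Depth was 10932437 to 19983699 counts a library. Figures and sequences were made in Python 3.11.15.

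The labels give 3 biological replicates a group but not how cultures were separated, so p-values measure the spread between these samples. All 15 pairs of replicates differed by more than counting error (chi-square per degree of freedom 2.63 to 46.1). Same-numbered libraries correlated above 0.1 in all pairs only between the WT groups, whose numbers were therefore taken to pair them. The sample titles number the replicates but state no pairing. The pairing was thus inferred from the same values that the fit with a block then tested.

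The 13 mitochondrial genes were all named. Up to 5 called nuclear members in each direction per comparison were named by size of change (mean log2 CPM of at least 1). Also named were NDUFV2, COX7A2, up to 2 genes a direction of each other list, the mitochondrial rRNAs and 6 regulators. The remaining called members were named so that each count is complete. The alternatives were a test with DESeq2 1.42.0, scaling by the upper quartile, TMM factors that leave out mitochondrial and small structural RNA, testing unfiltered genes or those with 10 counts in all libraries, a false discovery rate of 0.05, fits of the compared libraries alone, a replicate block, GC offsets with and without that block, and leaving out each replicate. The fit of the WT libraries alone with a block was added after seeing the data. The analysis was tested on simulated data.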

Additional observations from a re-analysis of the deposited data

Results flagged for a closer look

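Among the members, 2 differed in level between the treated HDAC6 lines, by edgeR's test of 6CD2m against 6CD1m cells on the same inhibitor and duration, in which 13.2% of all genes were called. COX8A was lower in 6CD2m cells by a log2 fold change of -0.71 (adjusted p = 1.1e-05), with all 3 libraries of 6CD2m below all 3 of 6CD1m. NDUFS8 was lower by -0.47 (adjusted p = 0.00061), also in 3 of 3 libraries. The NDUFS8 call was lost in 5 of 6 fits that left out a library and in 5 of 10 other alternatives (adjusted p up to 0.21), and the COX8A call in 3 of the 10 (up to 0.0088). Both comparisons with WT cells use the same 3 WT libraries. Against them COX8A was at -0.83 in 6CD2m and -0.12 in 6CD1m cells, and NDUFS8 at -0.47 and 0.00.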

How the results depend on the processing

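Directions of the 21 called gene changes were the same under every alternative run. The number of all genes called also moved with the setting. In 6CD1m cells against WT it was 0.793% with edgeR and 3.42% with DESeq2. Where no share of all genes is given here or above, a change in the members called cannot be told apart from a change over all genes. In 6CD2m cells against WT cells 11 members were called. DESeq2 gave 17, no filter 19, GC offsets 7 and an adjusted p below 0.05 gave 35, and leaving out 1 replicate gave 6 to 9. In 8CDm cells 8 were called, 5 with GC offsets, 23 at 0.05, 2 in a fit of only the libraries compared and 2 to 6 with a replicate left out. In 6CD1m cells none was called, 8 with DESeq2, 10 without a filter, 1 with GC offsets, 19 at 0.05 and 0 to 0 with a replicate left out. Between the WT groups none was called, 1 with DESeq2, 3 at 0.05 and 0 to 0 with a replicate left out. In 6CD2m against 6CD1m cells 2 were called, 6 with DESeq2, 4 with upper-quartile scaling, 4 without a filter, 0 with GC offsets, 16 at 0.05, 0 with only the libraries compared and 1 to 3 with a replicate left out. In 6CD2m against 8CDm cells none was called, 3 with DESeq2, 1 each with upper-quartile scaling, no filter and GC offsets, 7 at 0.05, 9 with only the libraries compared and 0 to 0 with a replicate left out. The interaction called none, 1 each with DESeq2, upper-quartile scaling, a minimum of 10 counts and only the libraries compared, 7 at 0.05, and 0 to 1 with a replicate left out, the 1 without WT replicate 1 on PCI-34051.

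With the replicate block, 7 members were called in 6CD2m and 3 in 8CDm cells against WT, and 1 in 6CD2m against 6CD1m cells. With GC offsets and the block together these were 5, 0 and 0. The block called 0 in the other comparisons, and 10 between the WT groups in a fit of only those libraries. Outside the WT groups, same-numbered libraries shared only a number (mean r from -0.255 to 0.0911). Upper-quartile scaling moved the median of all genes to 0.10 in 6CD1m cells and to 0.13 in the interaction. The causes of these differences were not tested. Counts were simulated for 6CD2m against WT cells with 200 genes changed by a known fold. At 0.001, 0 of 200 were recovered at 1.5-fold, 85 at 2-fold and 192 at 4-fold. The simulation changed only 200 genes, whereas 2310 were called in the data, and the adjustment is stricter when fewer genes change. The recovered numbers therefore do not give the sensitivity in the data, where NDUFS8 was called at a log2 fold change of -0.47.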
